A study of Mus musculus with 7 samples.

Results

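The nuclear genes for the subunits of the 5 oxidative phosphorylation (OXPHOS) complexes were examined in gene arrays of whole skeletal muscle. Members were taken by a rule on gene symbols, in a set chosen with earlier results of these data known. For complex I they were Ndufa, Ndufb, Ndufc, Ndufs and Ndufv genes, and for complex II Sdha to Sdhd. For complex III they were Uqcr genes and Cyc1, for complex IV Cox4 to Cox8 genes, and for complex V Atp5 genes. The rule found 80 genes among 22180 genes with a feature (probe set) of their own, with 34 in complex I, 4 in complex II, 8 in complex III, 17 in complex IV and 17 in complex V. Of these, 76 reached the median signal of the array on at least 2 of the 7 arrays and were tested among 13364 genes. The rule also took in Ndufa4l2, a hypoxia-inducible paralog of Ndufa4, and Cox7a2l, a factor in the assembly of supercomplexes. The complex of a gene was likewise set by its symbol and not by where its protein is found, so Ndufa4 counts under complex I by name only. The 13 subunits encoded in mitochondrial DNA were not analysed here.

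There were 2 arrays of aged MISR mice (24 months, replicates 1 and 2), 2 of aged WT mice (24 months, replicates 2 and 3) and 3 of young WT mice (2 to 3 months, replicates 1 to 3). MISR mice carry a transgene for the IκB super-repressor, which blocks NF-κB, under the muscle creatine kinase promoter, so the block is in muscle fibers and not in the other cells of the tissue. Each array is a biological replicate, and young MISR muscle was not analysed here. WT mice were purchased from breeding colonies and MISR mice were bred by the laboratory, so source and genotype cannot be told apart for aged MISR arrays. Neither the muscle taken nor the animals' sex is given in the sources used here. Values are robust multi-array average (RMA) signals on the log2 scale, where 1 unit is a doubling, and the signal of 1 gene is not comparable with that of another.

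Complexes I and II take electrons from NADH and succinate, complex III passes them by way of cytochrome c to complex IV, which reduces oxygen, and complex V uses the resulting proton gradient to make ATP. Most subunits are encoded in the nucleus, and their messages are abundant in skeletal muscle, above all in slow and in oxidative fast fibers. Several subunits of complex IV exist in a form found in most tissues and a form of heart and skeletal muscle. NRF1, GABP, ERRα and YY1 are transcription factors known for acting on these genes, with PGC-1α as their coactivator.

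The 250 bases before the start of 4 members are shown because these genes had the 2 smallest p-values of any member in each comparison below: Cox6a1 (chr5:115348959-115349208), Ndufb6 (chr4:40279422-40279671), Ndufa8 (chr2:36049339-36049588) and Atp5l (chr9:44920743-44920992), each on the minus strand of GRCm38.p6 and taken from RefSeq. They are written 5′ to 3′ with the motifs searched, on both strands, in capitals.
Cox6a1: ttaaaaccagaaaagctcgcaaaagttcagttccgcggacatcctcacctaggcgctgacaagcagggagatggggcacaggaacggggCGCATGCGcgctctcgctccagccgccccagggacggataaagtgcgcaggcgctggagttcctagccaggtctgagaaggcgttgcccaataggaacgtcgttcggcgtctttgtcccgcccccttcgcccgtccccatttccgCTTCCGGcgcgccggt
Ndufb6: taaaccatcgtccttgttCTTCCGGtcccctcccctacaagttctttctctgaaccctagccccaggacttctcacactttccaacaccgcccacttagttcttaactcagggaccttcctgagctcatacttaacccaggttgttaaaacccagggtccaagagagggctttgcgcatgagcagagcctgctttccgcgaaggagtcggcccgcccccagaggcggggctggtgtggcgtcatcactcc
Ndufa8: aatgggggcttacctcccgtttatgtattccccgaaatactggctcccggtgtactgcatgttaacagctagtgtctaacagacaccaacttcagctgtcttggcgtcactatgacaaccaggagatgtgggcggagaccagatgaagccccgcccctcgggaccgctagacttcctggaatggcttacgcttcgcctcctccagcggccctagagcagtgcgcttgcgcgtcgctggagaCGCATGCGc
Atp5l: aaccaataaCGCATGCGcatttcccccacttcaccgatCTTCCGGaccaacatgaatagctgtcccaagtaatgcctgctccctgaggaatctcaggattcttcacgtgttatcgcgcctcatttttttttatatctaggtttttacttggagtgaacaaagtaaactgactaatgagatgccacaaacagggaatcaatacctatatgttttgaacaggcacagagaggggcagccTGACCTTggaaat
The capitals in Cox6a1 mark the NRF1 motif (CGCATGCG, the same on both strands) and the GABP motif (CCGGAAG, here as its reverse complement CTTCCGG). Ndufb6 holds the GABP motif, Ndufa8 the NRF1 motif, and Atp5l the NRF1, the GABP and the ERRα motif (AAGGTCA, here as TGACCTT). The motifs in these windows do not overlap. Windows were at hand for 65 of the 80 members. The NRF1 motif was in 7 of them (10.8%), which were Cox6a1, Ndufa8, Ndufa11, Atp5g2, Atp5j, Atp5k and Atp5l, against 1.75% of 27025 genes with a window. The GABP motif was in 12 (18.5%, against 7.83%), the ERRα motif in 3 (4.62%, against 4.70%) and the YY1 motif AAGATGGC in 1 (1.54%, against 1.83%). The NF-κB motif GGGACTTTC was in 1, that of Ndufv3 (1.54%, against 0.337%). A match is a run of letters and not a binding site, and no match says only that these letters are not in the window.

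The sample titles give the tissue as muscle, and all 10 defining genes of the tissue passed the signal filter, among them Ckm, Acta1 and Myh4. Passing the filter does not by itself identify a tissue, since 9 of 9 neutrophil and 9 of 9 endothelial markers also passed. Array medians over 41345 features lay between 5.86 and 5.93. Most OXPHOS genes were among the brightest features, with 48 of the 80 at or above the 95th percentile of all 41345 features. The tested members had mean signals of 6.11 to 13.47. The highest signal of any feature on any array was 14.12. Young WT arrays lay close together over the tested members, with a median standard deviation (SD) of 0.04 (log2), against 0.07 over all genes. The SD was 0.08 in aged MISR muscle (0.09 over all genes) and 0.10 in aged WT muscle (0.07 over all genes).

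No OXPHOS gene passed the test in any comparison, and no member differed by more than 1.3-fold between groups. Between aged WT and young WT muscle, limma called 0 of 76 members at an adjusted p under 0.05, where 0.18% of all genes were called (0.0973% higher and 0.0823% lower). At an unadjusted p under 0.05, 1 member was higher and 4 were lower in aged WT muscle, against 9.26% and 6.41% of all genes. Between aged MISR and aged WT muscle, 0 members were called (0.0524% of all genes, each of them higher), with 11 higher and 0 lower at an unadjusted p under 0.05, against 8.08% and 4.09% of all genes. Between aged MISR and young WT muscle, 0 members were called (0.591% of all genes, 0.456% higher and 0.135% lower), with 2 higher and 2 lower at an unadjusted p under 0.05, against 11.8% and 6.97%. The 2-group test of the methods gave 9, 4 and 6 members at an unadjusted p under 0.05 in the same order and 0 after adjustment. The median 95% interval of a member's difference reached 0.19, 0.21 and 0.19 (log2) to either side, and the whole interval lay within 1.5-fold for 75, 72 and 75 of the 76 members and within 1.3-fold for 59, 41 and 61.

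Most differences had the same sign within a comparison. For aged WT minus young WT, 64 of 76 members were lower and 12 higher (84.2% lower, against 47.7% of all genes), with a median of −0.08 (log2; 0.01 over all genes) and a range of −0.27 to 0.27. For aged MISR minus aged WT, 66 were higher and 10 lower (54.2% and 45.8% of all genes), with a median of 0.13 (0.01 over all genes) and a range of −0.19 to 0.32. Both comparisons use the same 2 aged WT arrays, so a low value there enters both with opposite signs. For aged MISR minus young WT, 58 members were higher and 18 lower (60.7% and 39.3% of all genes), with a median of 0.04, the same as over all genes. With the arrays quantile-normalized again, this last split was 44 higher and 32 lower, with a median of 0.01. In bulk tissue, fewer cells of a type and less RNA per cell cannot be told apart.

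**Figure D1:**
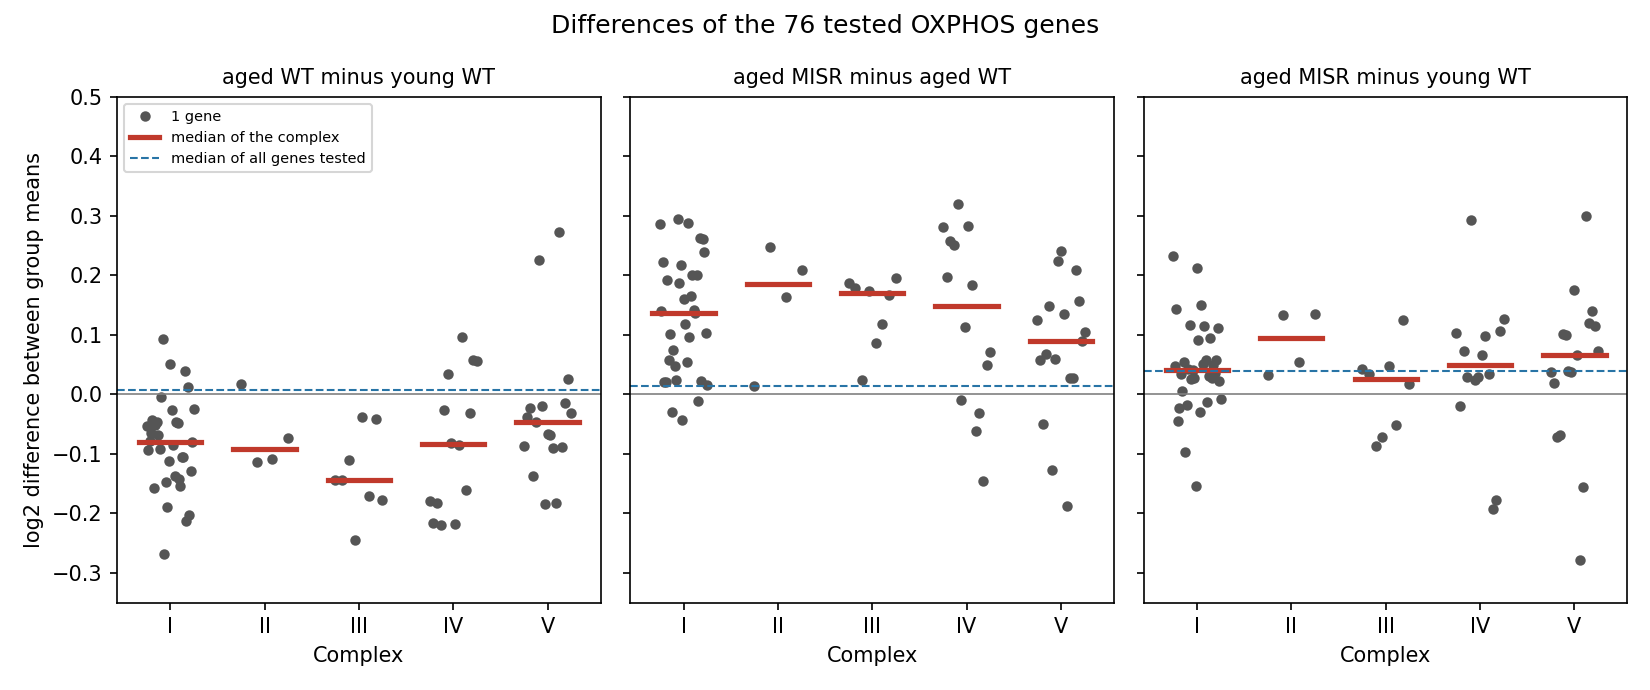
Log2 differences between group means (y axis) of the 76 tested OXPHOS genes by complex (x axis), with 1 point per gene, the median of each complex as a red bar and the median of all genes tested as a dashed line. Most points lie below 0 for aged WT minus young WT and above 0 for aged MISR minus aged WT, and all lie between −0.28 and 0.32.

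All 5 complexes had a median below 0 for aged WT minus young WT and above 0 for aged MISR minus aged WT. For aged WT minus young WT, the medians were −0.08 for complex I (29 of 33 lower), −0.09 for complex II (3 of 4), −0.14 for complex III (8 of 8), −0.08 for complex IV (10 of 14) and −0.05 for complex V (14 of 17). For aged MISR minus aged WT, they were 0.14 (30 of 33 higher), 0.19 (4 of 4), 0.17 (8 of 8), 0.15 (10 of 14) and 0.09 (14 of 17) for complexes I to V. For aged MISR minus young WT, they were 0.04 (25 of 33 higher), 0.09 (4 of 4), 0.03 (5 of 8), 0.05 (11 of 14) and 0.07 (13 of 17). With the arrays quantile-normalized again, complex III turned to −0.04 in this last comparison.

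A single array carried much of the shift. As a deviation from the gene's 7-array mean, the median of the 76 members was 0.01 and 0.08 (log2) in aged MISR replicates 1 and 2, −0.14 and −0.01 in aged WT replicates 2 and 3, and 0.02, 0.03 and −0.02 in young WT replicates 1 to 3. Aged WT replicate 2 was the lowest array in 52 of 76 members (68.4%), against 19.2% of all genes, and aged MISR replicate 2 was the highest in 38 (50%), against 18.6%. Aged WT replicate 2 lay below all 3 young WT arrays in 59 members (77.6%, against 31.3% of all genes), and aged WT replicate 3 in 32 (42.1%, against 27.7%). Without aged WT replicate 2, the median was −0.03 for aged WT minus young WT (29 higher and 47 lower) and 0.07 for aged MISR minus aged WT (57 higher and 19 lower). By complex, the medians for aged WT minus young WT were then −0.03 (22 of 33 lower), −0.04 (2 of 4), −0.07 (7 of 8), 0.01 (6 of 14) and −0.01 (10 of 17) in complexes I to V, and those for aged MISR minus aged WT were 0.08, 0.14, 0.07, 0.04 and 0.05. The complexes thus kept a median above 0 in the second comparison, and complex IV lost its median below 0 in the first. Without aged WT replicate 3 instead, they were −0.16, −0.09, −0.20, −0.14 and −0.09 for aged WT minus young WT and 0.17, 0.22, 0.24, 0.23 and 0.12 for aged MISR minus aged WT. Without aged MISR replicate 2, the medians for aged MISR minus aged WT were 0.10, 0.07, 0.09, 0.09 and 0.06. Without aged MISR replicate 2, the median for aged MISR minus young WT was 0.00 (39 higher and 37 lower), with −0.01 in complex II, −0.06 in complex III and −0.01 in complex V. The aged WT mean was the lowest of the 3 groups in 58 members (76.3%, against 32.3% of all genes), and both aged WT arrays lay below all 5 other arrays in 21 (27.6%, against 7.25%).

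**Figure D2:**
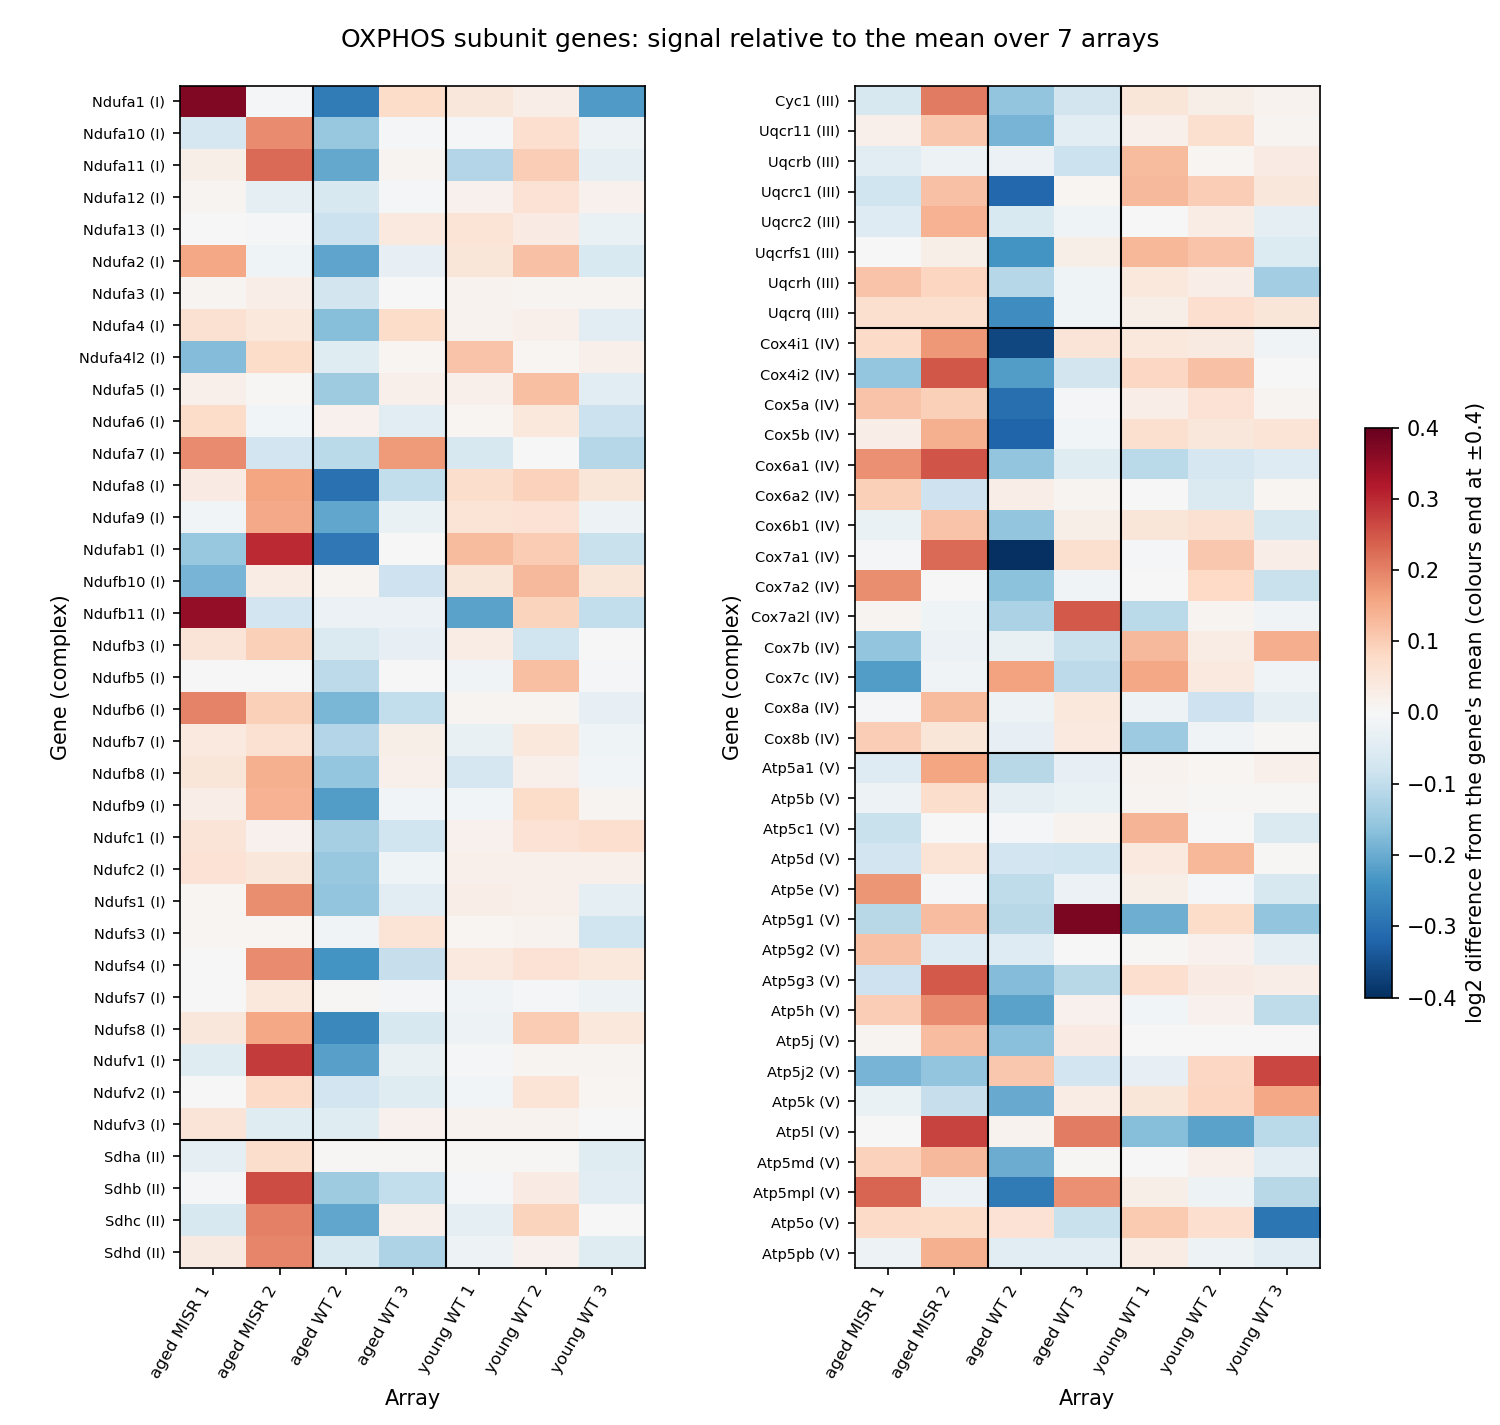
Log2 signal of each tested OXPHOS gene relative to its mean over 7 arrays (colour), with genes in rows by complex and arrays in columns by group. The column of aged WT replicate 2 is blue in most rows, and that of aged MISR replicate 2 is red in most rows of complexes II and III.

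**Figure D3:**
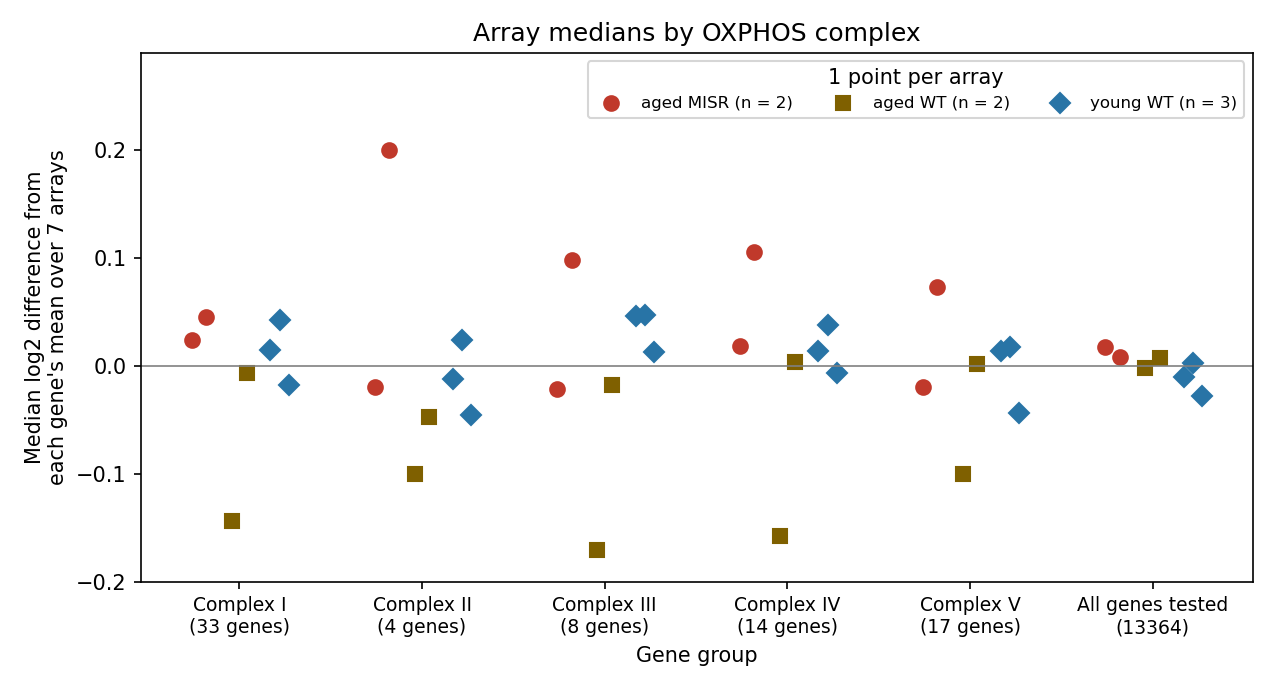
Median over the genes of each complex of the log2 signal relative to each gene's mean (y axis), with 1 point per array. In every complex aged WT replicate 2 is the lowest array, from −0.10 in complexes II and V to −0.17 in complex III, while the medians over all genes lie within 0.03 of 0.

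Groups without overlap followed the same signs. Both aged WT arrays lay below all 3 young WT arrays in 30 members and above them in 3, where 15.7% and 22% of all genes did so. In 37 members the 2 aged MISR arrays were both higher than either aged WT array, and in 1 both were lower, against 20.3% and 15.4% of all genes. Relative to young WT, both aged MISR arrays were higher in 17 members and lower in 6, against 24.4% and 13.6%.

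In complex I, the accessory subunit Ndufa8, which lies on the intermembrane side of the membrane, had the lowest values in aged WT muscle. Its signal was 11.29 and 11.42 (log2) in aged MISR muscle, 10.96 and 11.16 in aged WT muscle and 11.33, 11.35 and 11.31 in young WT muscle. The aged WT arrays lay below all others, and the aged MISR arrays on either side of the young ones. Its difference was −0.27 for aged WT minus young WT (standard error, SE, 0.08; adjusted p = 0.191 from limma, the smallest of any member there) and 0.29 for aged MISR minus aged WT (SE 0.09; adjusted p = 0.261). A second, dimmer feature of Ndufa8 gave −0.18 and 0.20. Ndufb6, an accessory subunit of the membrane arm, read 10.74 and 10.64 in aged MISR muscle, 10.36 and 10.45 in aged WT muscle and 10.56, 10.56 and 10.51 in young WT muscle. Here the 3 groups did not overlap, with aged MISR highest and aged WT lowest. The difference between aged MISR and aged WT muscle was 0.29 (95% interval 0.12 to 0.46, adjusted p = 0.199 from limma), and that between aged MISR and young WT muscle was 0.15 (adjusted p = 0.27).

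The group means had the same order, with aged MISR overlapping young WT muscle, for Ndufs4, an accessory subunit needed for a stable complex I, and Ndufs8, a core subunit with iron-sulfur clusters. Ndufs4 read 12.39 and 12.57 in aged MISR muscle, 12.14 and 12.29 in aged WT muscle and 12.42, 12.44 and 12.43 in young WT muscle. Ndufs8 read 11.40 and 11.51 in aged MISR muscle, 11.09 and 11.29 in aged WT muscle and 11.33, 11.45 and 11.40 in young WT muscle. In both genes the aged WT arrays were the lowest, by 0.21 and 0.20 against young WT muscle (unadjusted p = 0.0321 and 0.044) and by 0.26 each against aged MISR muscle (unadjusted p = 0.0199 and 0.0238). The small accessory subunit Ndufc1, the remaining member of the 4 lower at an unadjusted p, was at −0.15 for aged WT minus young WT, with 8.97 and 9.03 in aged WT muscle against 9.12, 9.16 and 9.18 in young WT muscle.

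Among the other core subunits of complex I, Ndufs1, the largest, was 0.20 higher in aged MISR than aged WT muscle (unadjusted p = 0.0482), with 11.09 and 11.27 against 10.92 and 11.04. Ndufv1, which binds NADH, read 11.50 and 11.83 in aged MISR muscle and 11.33 and 11.52 in aged WT muscle, so that the groups overlapped (difference 0.24, adjusted p = 0.466 from limma). Ndufv2 differed by 0.10 and Ndufs3 by −0.01. Ndufs7, which holds the last iron-sulfur cluster before ubiquinone, lay between 13.35 and 13.41 on all 7 arrays, near the top of the scale.

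In other members of complex I, 1 array stood apart. Ndufa1 read 8.52 and 8.14 in aged MISR muscle, 7.87 and 8.22 in aged WT muscle and 8.19, 8.17 and 7.92 in young WT muscle. Ndufb11 read 8.96 and 8.53 in aged MISR muscle, 8.58 and 8.58 in aged WT muscle and 8.39, 8.70 and 8.51 in young WT muscle. Both are X-linked accessory subunits, and in both aged MISR replicate 1 was the highest array while replicate 2 was not, so the means against young WT muscle (0.23 and 0.21 higher) rest on that array. Ndufb10, another accessory subunit, went the other way, with 8.36 and 8.57 in aged MISR muscle against 8.59, 8.67 and 8.59 in young WT muscle (difference −0.15, unadjusted p = 0.102).

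Complex II, which is also an enzyme of the citric acid cycle, had its highest values in aged MISR replicate 2 in all 4 subunits. Sdhb, the iron-sulfur subunit, read 10.73 and 10.99 in aged MISR muscle, 10.59 and 10.63 in aged WT muscle and 10.72, 10.76 and 10.69 in young WT muscle. Its difference between aged MISR and aged WT muscle was 0.25 (95% interval 0.02 to 0.47, adjusted p = 0.368 from limma). Sdhd, a membrane anchor, read 11.28 and 11.44 in aged MISR muscle, 11.18 and 11.12 in aged WT muscle and 11.22, 11.25 and 11.19 in young WT muscle. Both subunits were lowest in aged WT muscle with no overlap, and in Sdhd both aged MISR arrays also lay above all young ones (difference 0.13, adjusted p = 0.343). Without aged MISR replicate 2 this Sdhd difference was 0.05, and that of Sdhb between aged MISR and aged WT muscle was 0.11, while without replicate 1 they were 0.21 and 0.38. The other anchor, Sdhc, was 0.16 higher in aged MISR than aged WT muscle with overlapping arrays. The catalytic flavoprotein Sdha lay between 12.27 and 12.39 on all 7 arrays and differed by 0.01.

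In complex III, every subunit had its lowest group mean in aged WT muscle. Uqcrc1, a core protein of the matrix side, read 11.92 and 12.11 in aged MISR muscle, 11.68 and 12.002 in aged WT muscle and 12.12, 12.09 and 12.04 in young WT muscle. Both aged WT arrays lay below the young ones, replicate 2 by far the more (difference −0.24, SE 0.11, adjusted p = 0.337). The small subunit Uqcrq read 7.86 and 7.86 in aged MISR muscle, 7.55 and 7.78 in aged WT muscle and 7.82, 7.87 and 7.85 in young WT muscle, with the aged WT arrays below all others (−0.18 against young WT muscle, 0.19 for aged MISR minus aged WT). The Rieske iron-sulfur protein gene Uqcrfs1 was 0.17 lower in aged WT than young WT muscle, with 7.85 and 8.12 against 8.22, 8.21 and 8.04, where aged WT replicate 3 lay among the young arrays.

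Cyc1, cytochrome c1, was 0.19 higher in aged MISR than aged WT muscle (11.83 and 12.10 against 11.73 and 11.82), and the small subunit Uqcr11 was 0.18 higher (10.31 and 10.40 against 10.11 and 10.25). Uqcrc2, the other core protein, was 0.09 higher with overlapping arrays. Against young WT muscle, Uqcrh, the hinge protein, was 0.13 higher in aged MISR muscle (9.62 and 9.60 against 9.55, 9.54 and 9.37) and Uqcrb was 0.09 lower (12.76 and 12.79 against 12.93, 12.81 and 12.84). The adjusted p-values of complex III members were 0.337 or above for aged WT minus young WT.

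Complex IV held the member with the largest difference. Cox6a1, the form of subunit 6A found in most tissues, read 10.90 and 10.97 in aged MISR muscle, 10.56 and 10.67 in aged WT muscle and 10.61, 10.65 and 10.67 in young WT muscle. The 2 aged MISR arrays lay above the other 5, and the aged WT arrays overlapped the young ones. Cox6a1 was 1.25-fold higher in aged MISR than aged WT muscle (log2 difference 0.32, SE 0.07, adjusted p = 0.166 from limma) and 1.23-fold higher than young WT muscle (0.29, SE 0.07, adjusted p = 0.105), the smallest adjusted p of any member in both comparisons. Its counterpart of heart and skeletal muscle, Cox6a2, read 12.86 and 12.69 in aged MISR muscle, 12.79 and 12.78 in aged WT muscle and 12.77, 12.71 and 12.77 in young WT muscle. These differed by −0.01 and 0.02 (95% intervals −0.20 to 0.18 and −0.15 to 0.19).

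The main regulatory subunit Cox4i1 and the nearby subunits Cox5a and Cox5b were low in aged WT replicate 2. Cox4i1 read 11.03 and 11.13 in aged MISR muscle, 10.59 and 11.01 in aged WT muscle and 11.001, 10.99 and 10.94 in young WT muscle. Cox5a read 10.32 and 10.30 in aged MISR muscle, 9.90 and 10.20 in aged WT muscle and 10.23, 10.26 and 10.21 in young WT muscle. Cox5b read 11.59 and 11.70 in aged MISR muscle, 11.24 and 11.55 in aged WT muscle and 11.63, 11.61 and 11.62 in young WT muscle. In all 3 genes aged WT replicate 3 lay within 0.1 of the nearest young WT array. The differences between aged MISR and aged WT muscle were 0.28, 0.26 and 0.25, with unadjusted p-values of 0.0659, 0.0368 and 0.05.

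Cox7a1, the muscle and heart form of subunit 7A, had its widest spread within aged WT muscle. It read 12.42 and 12.65 in aged MISR muscle, 12.02 and 12.49 in aged WT muscle and 12.43, 12.54 and 12.46 in young WT muscle. Aged WT replicate 3 lay among the young arrays, so the lower aged WT mean rests on replicate 2. The hypoxia-responsive form Cox4i2 was 0.22 lower in aged WT than young WT muscle (7.71 and 7.85 against 8.01, 8.05 and 7.93). The small subunits Cox7b and Cox7c were lower in aged MISR than young WT muscle, by 0.19 (12.15 and 12.29 against 12.44, 12.34 and 12.46, adjusted p = 0.223 from limma) and 0.18 (7.82 and 8.03 against 8.20, 8.08 and 8.03, with overlap). Cox7b had a second, dimmer feature with the opposite sign (0.27), and the mean of its features gave 0.04.

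Of 7 pairs of related genes, forms of the same subunit except for Ndufa4 and its paralog Ndufa4l2, 3 shifted without overlap in at least 1 comparison. The share of other gene pairs that would do so was not computed, so this count is not read as an excess. Among single genes, 22% were higher and 15.7% lower without overlap for aged WT minus young WT alone. Cox6a2 relative to Cox6a1, centred on the 7 arrays, stood at −0.09 and −0.33 (log2) in aged MISR muscle, 0.18 and 0.06 in aged WT muscle and 0.11, 0.01 and 0.06 in young WT muscle. The aged MISR arrays lay below the other 5, with shifts of −0.33 against aged WT and −0.27 against young WT muscle. Members with a mean signal of 12 and above, such as Cox6a2, had a median difference of 0.07 for aged MISR minus aged WT. Those from 10 to 12, such as Cox6a1, had 0.18, and the part of signal level in this shift was not tested. Atp5g1 relative to Atp5g3, genes for the same c subunit of the rotor ring, stood at −0.03 and −0.12 in aged MISR muscle, 0.06 and 0.49 in aged WT muscle and −0.26, 0.04 and −0.18 in young WT muscle. Both aged WT arrays were above the others, but replicate 3 made up most of the shift of 0.41 against young WT muscle, which was 0.20 without it and 0.62 without replicate 2. Atp5g2 relative to Atp5g3 was 0.16 higher in aged WT than young WT muscle, also without overlap. Cox4i2 against Cox4i1, Cox7a1 against Cox7a2, Cox8b against Cox8a and Ndufa4l2 against Ndufa4 shifted by −0.15 to 0.10 in the 3 comparisons, with overlap. The pairs are given as a description, and no test was run on them.

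In complex V, Atp5l, the membrane subunit g, was the only member higher in aged WT than young WT muscle at an unadjusted p under 0.05. It read 9.48 and 9.75 in aged MISR muscle, 9.49 and 9.69 in aged WT muscle and 9.31, 9.27 and 9.37 in young WT muscle. All 4 aged arrays lay above the 3 young ones, and the aged groups differed by 0.03 (95% interval −0.23 to 0.29). Its difference was 0.27 for aged WT minus young WT (adjusted p = 0.264) and 0.30 for aged MISR minus young WT (adjusted p = 0.187, both from limma). Atp5j2, the membrane subunit f, read 5.93 and 5.96 in aged MISR muscle, 6.22 and 6.04 in aged WT muscle and 6.08, 6.20 and 6.38 in young WT muscle. It was the lowest in aged MISR muscle (−0.28 against young WT muscle, adjusted p = 0.215), but its signal was near the array median.

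Further members of complex V, Atp5h and Atp5md, were higher in aged MISR than aged WT muscle at an unadjusted p under 0.05. Atp5h, subunit d of the peripheral stalk, read 12.36 and 12.45 in aged MISR muscle, 12.05 and 12.28 in aged WT muscle and 12.25, 12.28 and 12.16 in young WT muscle. Atp5md, a small membrane subunit also called DAPIT, read 12.39 and 12.43 in aged MISR muscle, 12.10 and 12.30 in aged WT muscle and 12.29, 12.32 and 12.25 in young WT muscle. In both, the aged MISR arrays lay above the other 5 and aged WT replicate 2 was the lowest, with differences of 0.24 and 0.21 between aged MISR and aged WT muscle (unadjusted p = 0.0388 and 0.0401). A dimmer feature of Atp5h gave −0.11.

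The ring genes Atp5g1 and Atp5g3 went apart in aged WT muscle. Atp5g3 read 9.87 and 10.19 in aged MISR muscle, 9.77 and 9.84 in aged WT muscle and 10.02, 9.98 and 9.98 in young WT muscle (−0.18 for aged WT minus young WT, 0.22 for aged MISR minus aged WT). Atp5g1 was 0.23 higher in aged WT than young WT muscle, with 6.88 and 7.37 against 6.80, 7.07 and 6.84, where replicate 3 alone was above the young arrays. Among the subunits of the catalytic head and central stalk, Atp5a1, Atp5b, Atp5c1, Atp5d and Atp5e differed by −0.14 to −0.02 for aged WT minus young WT and by −0.05 to 0.15 for aged MISR minus aged WT. Atp5o, which joins the peripheral stalk to the head, differed by 0.02 and 0.09. Atp5b, the catalytic β subunit, lay between 13.43 and 13.54 on all 7 arrays.

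**Figure D4:**
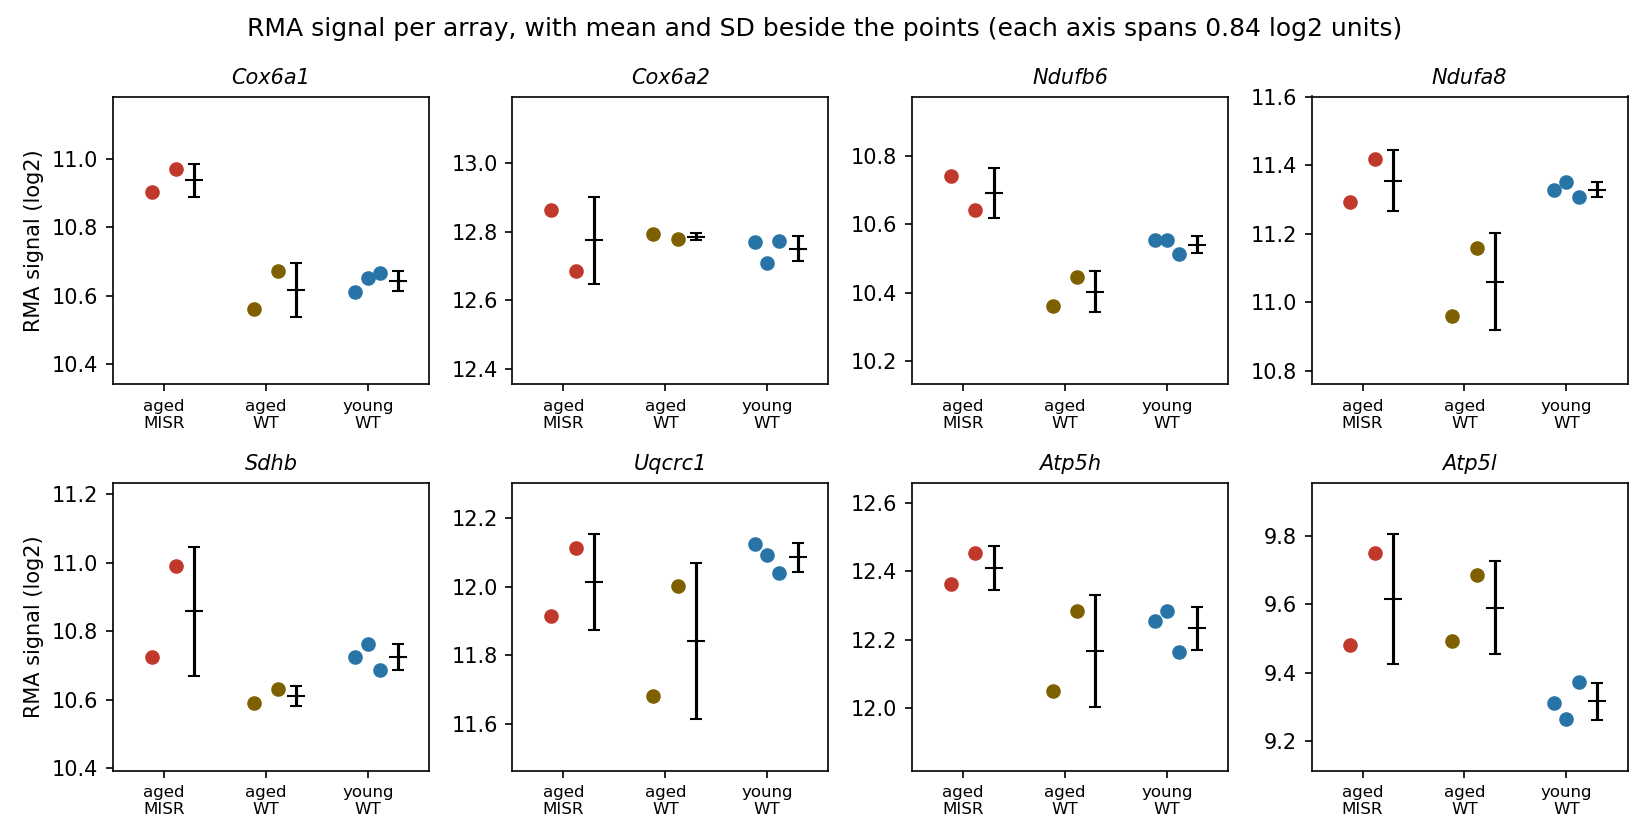
RMA signal (log2, y axis) of 8 members on each array, with 1 point per array and the group mean with its SD beside the points (n = 2 aged MISR, 2 aged WT and 3 young WT). Cox6a1 separates aged MISR muscle at 10.90 and 10.97 from the other arrays at up to 10.67, while Cox6a2 overlaps in every comparison with aged MISR muscle.

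The 4 members under the signal filter were Ndufs5 of complex I and Cox6b2, Cox7b2 and Cox8c of complex IV, the last 3 known mainly from testis. Cox6b2 read 5.25 to 5.46, Cox7b2 3.49 to 3.88 and Cox8c 4.61 to 4.87 over the 7 arrays, all below the array medians. Ndufs5 read 5.56 and 5.50 in aged MISR muscle, 5.88 and 5.79 in aged WT muscle and 6.07, 5.72 and 5.79 in young WT muscle, above the median on a single array. Features shared with another gene left out Cox6c, Ndufb2, Ndufb4, Ndufs6 and Uqcr10, among 8 symbols. Many subunit genes have processed pseudogenes of nearly the same sequence, and the sources used here do not say whether the features separate them. Of 9 members with 2 features, both gave the same sign in 6, 7 and 6 of the 3 comparisons.

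Dim and bright features gave medians of the same sign. For aged MISR minus aged WT, the median was 0.09 for the 9 members with a mean signal below 8, 0.13 for 18 from 8 to 10, 0.18 for 30 from 10 to 12 and 0.07 for 19 at 12 and above. For aged WT minus young WT, the medians in the same order were −0.07, −0.05, −0.10 and −0.08.

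Other genes of the pathway were read from lists and gave 0 calls at an adjusted p under 0.05 in any comparison. Of all genes, 0.18% were called for aged WT minus young WT and 0.0524% for aged MISR minus aged WT. The share was 0.591% for aged MISR minus young WT. With shares this small, 0 calls on these lists do not set them apart from all genes. Of 43 OXPHOS assembly factors, 22 were lower and 21 higher in aged WT than young WT muscle (median 0.00), and 35 were higher in aged MISR than aged WT muscle (median 0.09). Bcs1l, the chaperone of the Rieske protein, read 8.60 and 8.66 in aged MISR muscle, 8.18 and 8.51 in aged WT muscle and 8.62, 8.63 and 8.60 in young WT muscle. Sco1, a copper chaperone of complex IV, was 0.29 higher in aged MISR than aged WT muscle (7.35 and 7.21 against 6.95 and 7.03). Nubpl, an iron-sulfur protein of complex I assembly, was 0.46 higher in aged MISR than young WT muscle (7.54 and 7.38 against 6.998, 7.18 and 6.83, adjusted p = 0.116 from limma). Of 39 proteins of the large mitochondrial ribosome subunit, 33 were higher in aged MISR than aged WT muscle (median 0.10), and 20 were lower in aged WT than young WT muscle (median −0.03).

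Genes on the carrier list mostly had negative differences for aged WT minus young WT, and regulators had differences of both signs. The list covers electron and adenine nucleotide carriers, but also Ucp3 and the ubiquinone synthesis genes Coq7 and Coq9. Of its 14 tested genes, 13 were lower in aged WT than young WT muscle (median −0.08). For aged MISR minus aged WT, 12 were higher (median 0.06). Ucp3, a carrier of the inner membrane of muscle mitochondria, read 9.17 and 9.40 in aged MISR muscle, 7.73 and 9.28 in aged WT muscle and 8.89, 9.06 and 8.85 in young WT muscle, so aged WT replicate 2 alone was low. Among 20 biogenesis regulators, the median was −0.08 for aged WT minus young WT (9 higher and 11 lower) and 0.05 for aged MISR minus aged WT (13 higher and 7 lower). At an unadjusted p under 0.05 for aged WT minus young WT, 2 regulators were higher and 0 lower, against 9.26% and 6.41% of all genes. These were Gabpb1, a subunit of GABP (0.21, adjusted p = 0.245 from limma), and Sirt1, a deacetylase that acts on PGC-1α (0.20, adjusted p = 0.206). Perm1, a muscle regulator downstream of PGC-1, was 0.47 higher in aged MISR than aged WT muscle (9.70 and 10.38 against 9.44 and 9.71, adjusted p = 0.431). Ppargc1a, which encodes PGC-1α, read 10.18 and 10.49 in aged MISR muscle, 10.15 and 10.32 in aged WT muscle and 10.47, 10.39 and 10.23 in young WT muscle, with all groups overlapping.

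**Figure D5:**
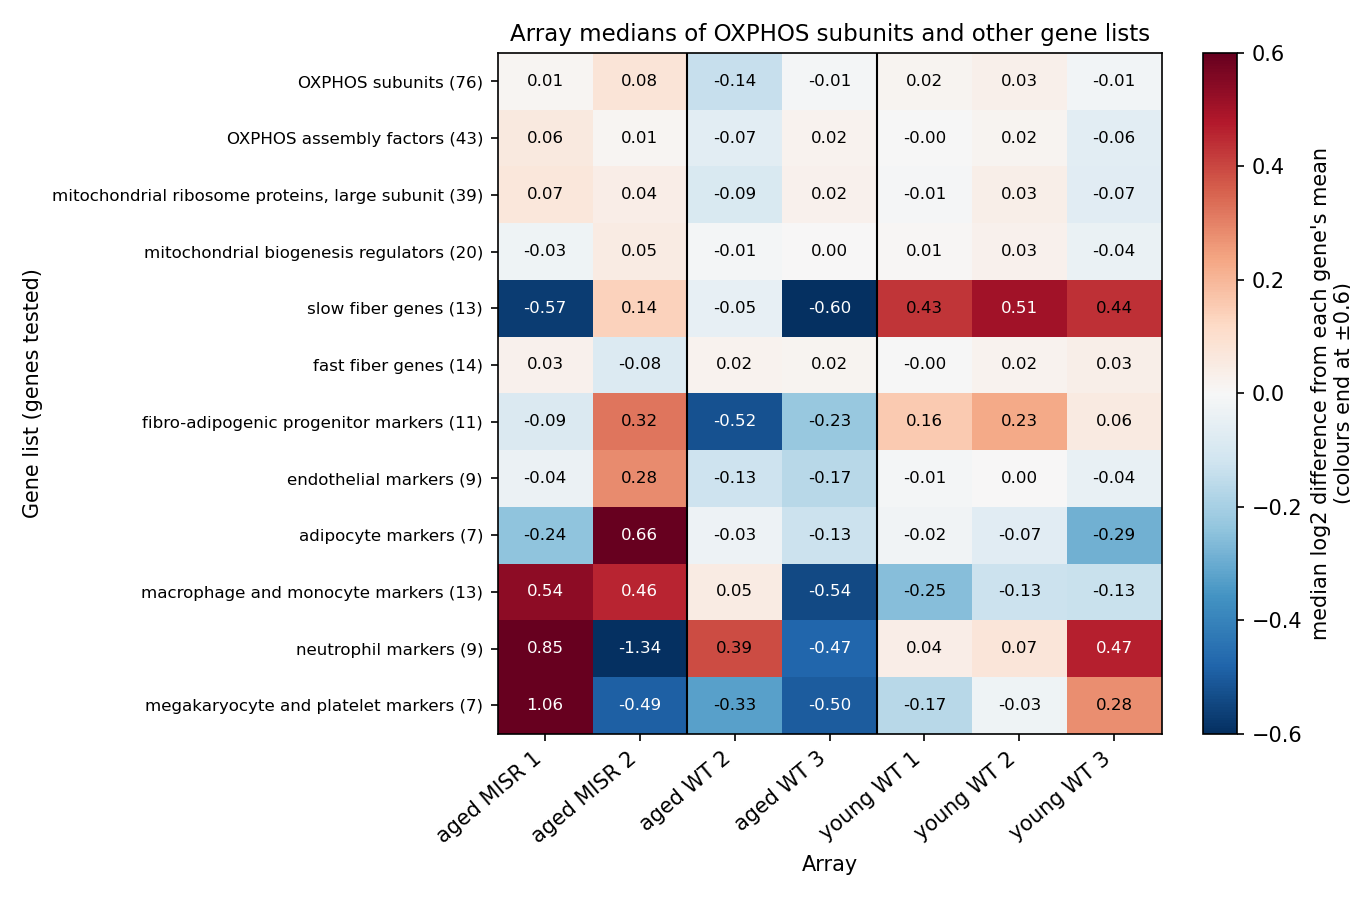
Median log2 signal relative to each gene's mean over 7 arrays (colour and printed value) for the OXPHOS subunits and other gene lists in rows, by array in columns. The OXPHOS row spans −0.14 to 0.08, and the lists for slow fibers, connective tissue, fat and blood cells differ between arrays of the same group by more than that.

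Markers of fiber type and of other cells differed between the same arrays. Mb (myoglobin), the oxygen store of oxidative fibers, read 12.51 and 12.99 in aged MISR muscle and 12.21 and 12.48 in aged WT muscle. It read 12.85, 12.84 and 12.77 in young WT muscle, and was lowest in aged WT replicate 2 and highest in aged MISR replicate 2. Mb was the extreme of the 10 defining genes of the tissue. Of these, 7 were lower and 3 higher in aged MISR than aged WT muscle (median −0.03). For aged WT minus young WT, 6 were lower and 4 higher (median −0.01). Myh2, the myosin of oxidative fast fibers, read 11.58 and 12.57 in aged MISR muscle, 11.44 and 11.46 in aged WT muscle and 12.33, 12.26 and 12.24 in young WT muscle. The 13 slow fiber genes had medians of −0.57 and 0.14 in aged MISR muscle, −0.05 and −0.60 in aged WT muscle and 0.43 to 0.51 in young WT muscle, relative to each gene's mean. In aged WT muscle the slow fiber genes were thus lower in replicate 3 and the OXPHOS genes in replicate 2. The medians of the 14 fast fiber genes lay between −0.08 and 0.03 on the 7 arrays. Within that list, Myh2 and Myh1, another fast myosin, stood at −0.82 and −0.32 for aged WT minus young WT (adjusted p = 0.191 and 0.252 from limma).

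The 11 markers of fibro-adipogenic progenitors, connective tissue cells of muscle, stood at −0.09 and 0.32 in aged MISR muscle, −0.52 and −0.23 in aged WT muscle and 0.06 to 0.23 in young WT muscle. The 7 tested markers of adipocytes stood at −0.24 and 0.66 in aged MISR muscle and between −0.29 and −0.02 elsewhere, with Lep and Cidea below the filter, and the 9 endothelial markers at −0.04 and 0.28 in aged MISR muscle and between −0.17 and 0.00 elsewhere. The 13 macrophage and monocyte markers stood at 0.54 and 0.46 in aged MISR muscle, 0.05 and −0.54 in aged WT muscle and −0.25 to −0.13 in young WT muscle. All 13 were higher in aged MISR than young WT muscle, against 60.7% of all genes. Of them, 2 passed an adjusted p of 0.05 from limma, where 0.456% of all genes passed on the higher side. The 7 megakaryocyte and platelet markers were at 1.06 and −0.49 in aged MISR muscle and the 9 neutrophil markers at 0.85 and −1.34. The part of fiber type and of these cells in the OXPHOS differences was not tested.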

How the data were processed

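RNA of whole skeletal muscle was labeled and hybridized to Affymetrix GeneChip Mouse Gene 2.0 ST arrays. The authors normalized the 7 arrays by RMA, and deposited log2 signals. The sources used here do not give the version of RMA or of the annotation. Of 41345 features, 23521 had 1 gene symbol in the platform table, 1820 had several and 16004 were not listed, and these last kinds were left out. For each of 22180 genes the feature with the highest mean over 7 arrays was used. Genes that reached the median of the array on at least 2 arrays were tested. The 3 groups were fitted together with limma (version 3.58.1, R 4.3.3; 4 residual and 3.13 prior degrees of freedom), with Benjamini-Hochberg adjustment over 13364 genes and a threshold of 0.05.

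Named were the 3 members of each complex with the largest difference in each comparison, the core subunits and isoform pairs, the members under the filter, and up to 4 genes of each other list. The OXPHOS members and the lists were chosen with earlier results of these data known. The simulated data had 100 genes changed by 0.5 (log2) and 100 others changed by 1 in each comparison, all adjusted together. Of those changed by 0.5, 71 were called for aged WT minus young WT. The count was 62 for aged MISR minus aged WT and 71 for aged MISR minus young WT, with 14, 9 and 8 unchanged genes called in the same order. The noise was independent between genes, with no shift of a whole array. No change as small as those of the members (at most 0.32) was simulated, so the run does not give the power at their size. No count depth exists for arrays, and their number limits the precision. Alternatives covered the normalization, centring, filter, features per gene, each array left out in turn and the replicate number as a block. They also covered the variance prior, array weights, the samples in the fit, the threshold and a Student's t test between 2 groups. Promoter windows were RefSeq's (GRCm38.p6). Figures were drawn with Python 3.11.15 and matplotlib 3.10.9.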

Additional observations from a re-analysis of the deposited data

How the results depend on the processing

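Under every setting run, 0 OXPHOS genes passed, the adjusted p threshold of 0.1 included. The counts over all genes moved by more than 1.5 times, from 24 to between 0 and 162 for aged WT minus young WT, from 7 to between 0 and 113 for aged MISR minus aged WT and from 79 to between 0 and 466 for aged MISR minus young WT. With 1 array left out, the median over the members lay between −0.1364 and −0.03 for aged WT minus young WT, between 0.0686 and 0.1815 for aged MISR minus aged WT and between 0.0011 and 0.0712 for aged MISR minus young WT. The extremes came without aged WT replicate 3 or 2 in the first 2 comparisons and without aged MISR replicate 2 or 1 in the last. With neither aged WT replicate 2 nor aged MISR replicate 1, a setting chosen after seeing the data, the medians were −0.03, 0.0938 and 0.0712. Where 1 of 2 arrays of a group was left out, the lone array was taken to vary as the other groups do. A second quantile normalization gave medians of −0.092, 0.0951 and 0.0139, and centring −0.0791, 0.1661 and 0.0792. The mean of a gene's features turned Cox7b for aged MISR minus young WT to 0.0406. With 1 array left out, the isoform pairs for aged MISR minus aged WT lay between −0.2385 and 0.0688 (Cox4i2 against Cox4i1), −0.4541 and −0.2072 (Cox6a2 against Cox6a1), −0.1098 and 0.3082 (Cox7a1 against Cox7a2), −0.2645 and 0.0058 (Ndufa4l2 against Ndufa4), −0.5636 and −0.1365 (Atp5g1 against Atp5g3) and −0.4139 and 0.0854 (Atp5g2 against Atp5g3). For aged MISR minus young WT they lay between −0.2759 and 0.0314 for Cox4i2, −0.3922 and −0.1453 for Cox6a2, −0.2418 and 0.1762 for Cox7a1, −0.2865 and −0.0162 for Ndufa4l2 and −0.2496 and 0.2498 for Atp5g2. For aged WT minus young WT, Atp5g1 against Atp5g3 lay between 0.1969 and 0.624. Arrays with the same replicate number did not deviate together (correlations of −0.224 to −0.008). With the replicate number as a block, 0 members and 0 of all genes passed, with medians of −0.0923, 0.1274 and 0.0554. The causes of these changes were not tested.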
